A study of Mus musculus with 32 samples.

Results

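Gene expression was compared between mouse early 2-cell embryos and mouse embryonic stem cells (mESC), the former able to form every tissue of the conceptus and the latter a cultured line with the properties of the epiblast. The comparison rests on 4 of the 32 samples of the series, 2 of early 2-cell embryos and 2 of mESC, which the authors gave as 1 value of FPKM (fragments per kilobase of transcript, relative to all fragments mapped) per gene and group. Of 24013 genes in the table, 7170 reached 5 FPKM in at least 1 of these columns and were kept. The measure is the difference of log2(FPKM + 1), early 2-cell minus mESC, after each column was scaled to the same median, and a positive value means higher in the embryo. A gene was called higher in a column at a difference of 1 or more, and a second line was set at 3 or more. With 1 value per group there was no replicate spread and no test.

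The early 2-cell embryos carried no mutation or injected agent. They came from C57BL/6N females, superovulated with gonadotrophins and mated to DBA/2N males, and their zona pellucida was removed before lysis. The hour of collection and the number of embryos per sample are not in the labels. The mESC were of strain R1, 1 line, kept in medium with LIF and serum. Libraries of polyadenylated RNA were prepared with a variant of Smart-Seq2, which copies whole transcripts from few cells into cDNA. Other columns of the table are used below to place the same genes in development: MII oocytes of C57BL/6N females, and zygotes, 2-cell, 4-cell and 8-cell embryos and inner cell mass (ICM) of the same cross, the ICM taken from blastocysts by immunosurgery. Control libraries of siRNA-injected 8-cell embryos (4) and blastocysts (3), also of this cross, served as a yardstick of replicate error.

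As background, the mouse oocyte stores the RNA and protein on which the embryo runs until its own genome is switched on, in a minor wave in the zygote and early 2-cell embryo and a major wave in the late 2-cell embryo. Maternal RNA is cleared over the same period, by deadenylation through the CCR4-NOT complex among other routes. Embryonic stem cells instead keep a transcription factor network around Oct4 (Pou5f1), Sox2 and Nanog, divide fast and depend on their own synthesis of ribosomes. Single cells in such cultures pass now and then through a state with transcripts of the 2-cell embryo.

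Both columns carried the markers of their labels. All 9 of the 2-cell embryo markers in the table were at 1 FPKM or more in early 2-cell embryos, against 3 in mESC, with summed levels of 999 and 11.6 FPKM. Among them Klf17 (332 FPKM) and Arg2 (129 FPKM) were already held by zygotes. All 9 oocyte and zygote markers were also at 5 FPKM or more in early 2-cell embryos, with a higher summed level of 4284 FPKM. In mESC these summed to 117 FPKM, of which Ooep gave 114. All 10 stem cell markers were at 5 FPKM or more in mESC and 2 were in the embryo. Of 25 fibroblast markers, which a feeder layer would bring, 3 reached 1 FPKM in mESC (Lgals1 31.1, Fn1 15.2 and Vim 11.6 FPKM), 11 were listed at 0 and the median was 0.0466 FPKM. Of 20 markers of cumulus and granulosa cells, which surround the oocyte, 1 reached 1 FPKM in the embryos (Cyp19a1, the aromatase, 10.2 FPKM) and 9 were listed at 0. The ribosomal RNA precursor Rn45s stood at 6829 FPKM in early 2-cell embryos, 2555 in mESC and 6967 in MII oocytes and was listed at 0 in all other stage columns, and it was left out of the comparison. FPKM is a share of each library, so fewer transcripts of a gene per cell and more transcripts of other genes cannot be told apart. Fewer cells of a type and less RNA per cell cannot be told apart either. In libraries of polyadenylated RNA the same holds for fewer transcripts and transcripts with shorter or no poly(A) tails.

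The columns differed at most genes. Of the 7170 genes, 2867 (40.0%) were higher in early 2-cell embryos by 1 or more, 2736 (38.2%) were higher in mESC, and 1567 (21.9%) lay within 1 either way. By 3 or more, 1116 (15.6%) were higher in the embryo and 1226 (17.1%) in mESC. The median difference over all genes kept was 0.16. Together 78.1% of genes differed by 1 or more and 32.7% by 3 or more. Between pairs of control libraries scaled in the same way, 7.88 to 11.98% of genes differed by 1 or more in 8-cell embryos (6 pairs) and 7.27 to 15.1% in blastocysts (3 pairs), and no pair had more than 0.426% of genes apart by 3 or more. One of the blastocyst controls has Rn45s at 0, and the pair without it had 11.7% of genes apart by 1 or more. These controls are of other stages and single libraries. The median SD between them was 0.31 on the log2 scale in 8-cell embryos and 0.50 in blastocysts.

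**Figure D1:**
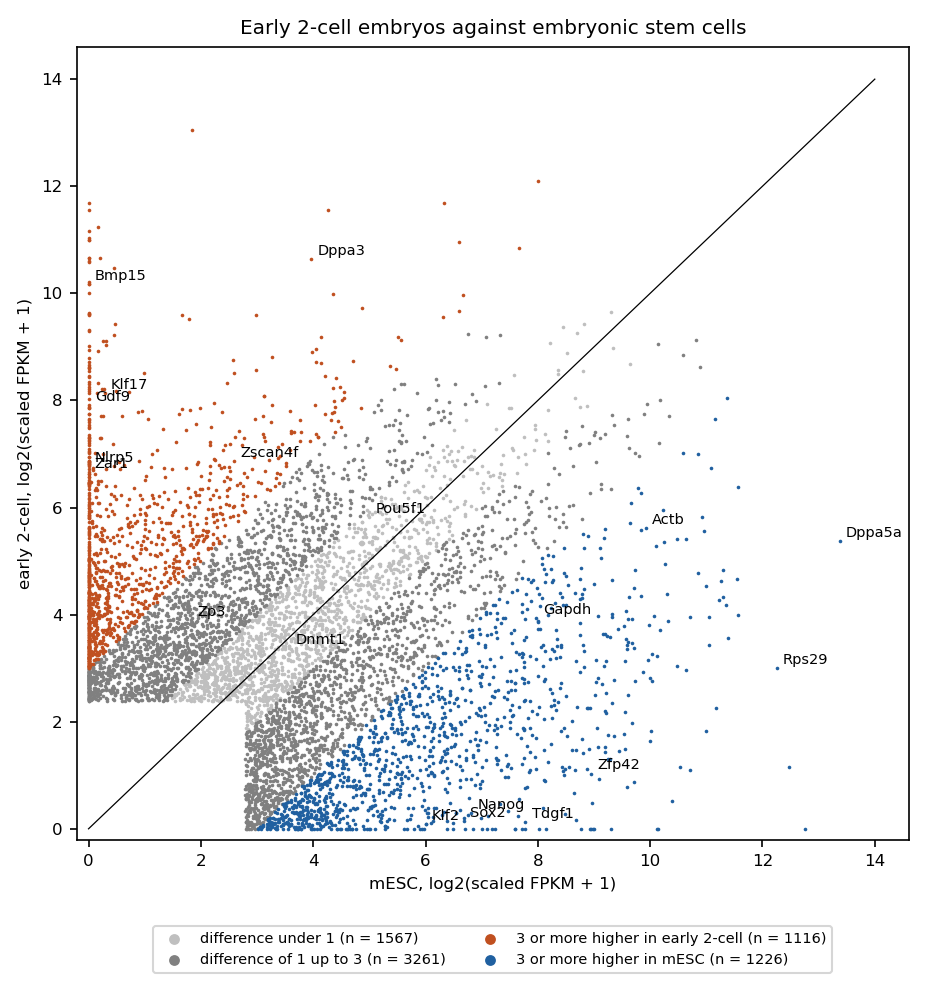
Levels of the 7170 genes kept, mESC on the horizontal and early 2-cell on the vertical axis, each as log2(scaled FPKM + 1), with the line of equal levels and each point 1 gene. The 1116 genes 3 or more higher in early 2-cell embryos and the 1226 higher in mESC fill both edges of the plot, with oocyte genes such as Bmp15 at the mESC zero and Tdgf1, Sox2, Nanog and Klf2 close to the embryo zero.

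Many genes were high in 1 column and under 5 FPKM in the other. Of the genes kept, 2703 reached 5 FPKM in both columns, 2661 in early 2-cell embryos alone and 1806 in mESC alone. There were 474 genes at 5 FPKM or more in the embryo and listed at 0 in mESC, and 68 the other way round. Among the 7170 genes kept, 496 reached 100 FPKM in early 2-cell embryos, 593 in mESC and 90 in both. A value listed at 0 in such a table can be a failed estimate, and a difference from it depends on the pseudocount, so such genes are given below by their levels. Leaving the columns unscaled moved the median of all genes from 0.16 to 0.60 and the split at 3 or more from 1116 against 1226 to 1388 against 966 (47.7% and 59.0% of calls higher in the embryo). The values below are therefore relative to the scaling.

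The genes farthest above mESC were stored maternal transcripts. Zbed3, a regulator of the subcortical maternal complex, was the most abundant protein-coding transcript of the early 2-cell embryo at 9993 FPKM, against 2.18 in mESC. Bcl2l10, an oocyte member of the Bcl2 family of cell death regulators, stood at 3903 FPKM and Btg4, the adaptor that brings the CCR4-NOT deadenylase to maternal mRNA, at 2709 FPKM, both listed at 0 in mESC. The others of the 12 largest differences on this side were Omt2b (3553 FPKM), Rfpl4 (2864), Omt2a (2420), Tcl1b1 (1918), Trim61 (1915), Khdc1b (1851), Obox5 (1828), Oog3 (1401) and Bmp15 (1366), each at or below 0.13 FPKM in mESC. In MII oocytes these 12 ranged from 1000.1 to 8502 FPKM, so the oocyte already held them.

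A list of oocyte products, made up of genes of the egg coat and of secreted or surface proteins together with other oocyte genes such as the Oog genes and Tcl1, lay on the embryo side. Of its 20 genes 19 were in the table and kept, and all 19 were higher in early 2-cell embryos by 1 or more. The list's median difference was 7.74 against 0.16 over all genes. Their median level was 285 FPKM in the embryo and 0 in mESC, and they made up 6.07% of all FPKM in the embryo against 0.0209% in mESC. Gdf9, the oocyte growth factor that acts on granulosa cells, stood at 285 FPKM and was listed at 0 in mESC. Of the zona pellucida genes, which encode the egg coat, Zp2 stood at 49.5 against 0.127 FPKM, Zp1 at 24.3 against 0 and Zp3 at 16.4 against 2.16. The smallest difference of the list was that of Zp3 (2.06). Tcl1, a cofactor of the kinase Akt that is also used by stem cells, was the exception in level, at 3897 FPKM in the embryo and still 67.3 FPKM in mESC.

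The subcortical maternal complex, a protein lattice under the egg membrane that the first cleavages need, and the oocyte Nlrp genes stood on the same side. Of 17 genes, 15 were higher in the embryo, all by 3 or more, and the median difference was 6.80. Nlrp5 (Mater) stood at 128 FPKM, Padi6 at 104 FPKM and Nlrp4f at 701 FPKM, against 0, 0 and 0.306 FPKM in mESC. Tle6, the co-repressor-like subunit, stood at 88.3 against 0.421 FPKM. The 2 members within 1 of equality were Ooep, a KH-domain subunit, at 289 FPKM in embryos and 114 FPKM in mESC (0.85), and Khdc3 (Filia) at 6.59 and 9.59 FPKM (-0.91). Within this list mESC held Ooep and Khdc3 at 5 FPKM or more and the other 15 genes at 2.18 FPKM or less.

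Regulators of the oocyte followed. Of 14 kept of the 20 oocyte transcription factor and chromatin genes, 13 were higher in early 2-cell embryos and 1, the insulator factor Ctcf (12.4 against 22.6 FPKM), was higher in mESC. Obox5 and Obox1, homeobox genes of the oocyte, stood at 1828 and 1362 FPKM and were listed at 0 in mESC. Obox1 and Obox2 have near-identical copies, so their reads can be split. Nobox, a homeobox factor needed for follicle growth, stood at 111 FPKM, Npm2, a chaperone that remodels sperm chromatin, at 278 FPKM and the oocyte linker histone H1foo at 247 FPKM, against 0, 0 and 0.139 FPKM. Zfp57, which guards imprints, was shared, with 1193 FPKM in the embryo and 16.4 FPKM in mESC (5.63).

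The machinery that stores, translates and removes maternal mRNA was mostly higher in the embryo. Of 24 genes kept of 28, 20 were higher in early 2-cell embryos and 1 in mESC, with a median difference of 3.26. Of the CCR4-NOT deadenylases, Cnot7 stood at 404 against 17.2 FPKM (4.01) and Cnot6l at 20.9 against 1.02 FPKM (3.08). Oocyte forms of general factors were listed at or near 0 in mESC: the cap-binding protein Eif4e1b (80.1 FPKM in the embryo) and the poly(A)-binding protein Pabpc1l (79.4 FPKM). Zar1, which holds maternal mRNA, stood at 119 FPKM and its relative Zar1l at 40.8 FPKM, both listed at 0 in mESC. Dazl, a germ cell translation factor, stood at 262 against 0.783 FPKM.

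Of 15 meiotic and oocyte spindle genes kept of 25, 10 were higher in the embryo (66.7%, against 40.0% of all genes). In mESC 1 was higher (6.67%, against 38.2%), and the median difference was 2.43. Without the filter, which left out 10 members below 5 FPKM in both columns, the median was 0.41, under the line of 1. Wee2, the oocyte kinase that holds Cdk1 inactive, stood at 527 FPKM and Fbxo43 (Emi2), which keeps the egg arrested, at 62.2 FPKM, against 0 and 0.0332 FPKM. Mos, the kinase of the same arrest, was low in the embryo, at 5.21 FPKM. Pttg1 (securin), used in every division, was 3.18 higher in the embryo, at 2176 against 170 FPKM. The spindle genes Cdc20, Sgol1 and Sgol2, also of every division, lay within 1. The checkpoint kinase Bub1b was higher in mESC (14.8 against 8.11 FPKM, a difference of -1.24, or -0.80 without scaling).

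Genes of the 2-cell stage were also on the embryo side. Of 40 genes known for expression at the 2-cell stage, 32 were kept, 30 were higher in early 2-cell embryos, 1 (Fbxo15, 25.6 against 64.1 FPKM) was higher in mESC and Dppa2 (38.8 and 27.0 FPKM) lay within 1. The median difference was 4.19. The list includes genes that the oocyte or zygote already held, such as Klf17 (543 FPKM in MII oocytes and 332 in early 2-cell embryos), Sp110 (99.1 and 115) and Arg2 (276 FPKM in zygotes and 129 in early 2-cell embryos), so these counts are not counts of transcripts that rose after the oocyte. Of the 24 members 3 or more higher in the embryo, 21 stood 1 or more above both MII oocyte and zygote. The 8 not kept, among them Tdpoz1 to Tdpoz4, Obox6 and Pramel7, stood below 5 FPKM in both columns. Zscan4f, of the zinc-finger family that marks the passing 2-cell-like state in stem cell cultures, stood at 136 FPKM in the embryo and 4.26 FPKM in mESC. Zscan4c stood at 87.0 against 3.80 FPKM, Zscan4d at 87.5 against 0.998 FPKM and the gene set's regulator Dux at 22.3 against 0.0698 FPKM. Tcstv3 stood at 168 against 4.78 FPKM, and Zfp352 at 78.0 FPKM and listed at 0 in mESC. Zscan4, Tcstv and several unnamed members of this list were thus low in the mESC column but above 0, while Zfp352, Usp17lc and Usp17ld were listed at 0. Of the 32 genes, 22 have a near-identical copy, so the level of a single member is uncertain.

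The other stages show which of these transcripts stood above their levels in the oocyte and zygote. Of the 1116 genes 3 or more higher in early 2-cell embryos, 1 had no MII oocyte value, 819 lay within 1 of the higher of MII oocyte and zygote, 231 were already 1 or more below it, and 65 stood 1 or more above both. The median level of the 819 was 35.7 FPKM in MII oocytes, 38.5 in early 2-cell embryos, 8.62 at the 2-cell stage and 0.186 in mESC. That of the 231 was 104 FPKM in MII oocytes and 36.7 in early 2-cell embryos, with H1foo at 7999.8 FPKM in the oocyte and 247 in the embryo and Gdf9 at 3496 and 285. The 65 had a median of 0.630 FPKM in MII oocytes, 0.678 in zygotes, 23.8 in early 2-cell embryos, 16.3 at the 2-cell stage, 1.59 at the 4-cell stage and 0.104 in mESC. They include 5 Zscan4 genes, 5 Usp17l genes, Tcstv1, Tcstv3, Zfp352, Dux, Sebox, a homeobox gene, Hist1h4c and Tdpoz5. Membership does not mean absence from the oocyte. Sebox stood at 46.0 FPKM in MII oocytes and 137 in early 2-cell embryos, and Tcstv3 at 12.7 and 168. Dux stood at 0.0703 FPKM in MII oocytes, 5.15 in zygotes, 22.3 in early 2-cell embryos and 0.203 at the 2-cell stage, so it had its highest value at the early 2-cell stage and a low one at the next. These 65 made up 5.83% of the embryo side. Set against the MII oocyte alone, a step added after the data were seen, 690 of the 1115 genes with a value (61.9%) lay within 1 of it, 218 stood 1 or more below and 207 (18.6%) 1 or more above, and 141 of the 819 stood 1 or more above the oocyte but within 1 of the zygote. The zygote column, unlike those of the oocyte and early 2-cell embryo, has Rn45s at 0, and the part of this in the classes was not tested.

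Promoters are shown for members of these classes, since the 65 genes above both oocyte and zygote had fewer CpG and more TATA boxes in their promoters than the other genes 3 or more higher in the embryo (values below). The windows hold the 150 bases before the RefSeq start of the gene in GRCm38.p6, which is not the build (mm9) to which the reads were aligned. Capitals mark a TATA box (TATAAA) and, in Zscan4c and Zscan4d, the core of the DUX binding motif (TGATTNNATCA, where N is any base), which both windows hold as its reverse complement. In Zfp352 they mark GGATTA, the motif of OBOX and related homeodomains, also on the other strand, as TAATCC, and in Utf1 and Sox2 the GC box (GGGCGG or its reverse complement) and, in Sox2, the CCAAT box as ATTGG.
Zscan4c, early 2-cell class, chr7:11005595-11005744, plus strand: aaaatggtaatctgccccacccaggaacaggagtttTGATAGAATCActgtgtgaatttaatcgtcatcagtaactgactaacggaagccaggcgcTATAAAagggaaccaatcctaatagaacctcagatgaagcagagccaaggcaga
Zscan4d, early 2-cell class, chr7:11166149-11166298, minus strand: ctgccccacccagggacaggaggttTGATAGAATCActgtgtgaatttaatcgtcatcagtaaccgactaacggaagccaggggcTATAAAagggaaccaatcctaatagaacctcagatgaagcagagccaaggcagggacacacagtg
Zfp352, early 2-cell class, chr4:90218670-90218819, plus strand: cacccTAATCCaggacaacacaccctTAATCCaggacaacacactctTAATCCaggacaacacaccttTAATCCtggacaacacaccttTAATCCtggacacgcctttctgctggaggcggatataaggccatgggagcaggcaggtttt
Oog3, stored oocyte transcript, chr4:144162652-144162801, minus strand: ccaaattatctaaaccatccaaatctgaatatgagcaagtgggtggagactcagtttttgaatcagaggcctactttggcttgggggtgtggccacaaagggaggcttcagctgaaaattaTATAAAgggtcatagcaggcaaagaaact
Utf1, mESC side, chr7:139943706-139943855, plus strand: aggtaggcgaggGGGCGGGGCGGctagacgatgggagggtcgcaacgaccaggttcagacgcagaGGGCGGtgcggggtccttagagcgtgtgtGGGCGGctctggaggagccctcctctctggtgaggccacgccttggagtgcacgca
Sox2, mESC side, chr3:34649845-34649994, plus strand: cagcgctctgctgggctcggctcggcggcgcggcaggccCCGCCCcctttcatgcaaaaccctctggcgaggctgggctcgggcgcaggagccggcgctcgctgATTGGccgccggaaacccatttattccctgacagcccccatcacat

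The Zscan4c window holds the DUX motif 114 to 104 bases and the TATA box 54 to 49 bases before the start, and the Zscan4d window holds them at 125 to 115 and 65 to 60. Zfp352 carries 5 copies of the OBOX motif within its window. Oog3 has a TATA box 29 to 24 bases before the start and no CpG in its window, while the Utf1 window has 13 CpG and 4 GC boxes, of which the first pair shares 1 base, and the Sox2 window has 15 CpG. Over windows of 250 bases before to 50 after the start, 48 of the 65 genes were matched by symbol, with 49 promoters. Their median number of CpG was 2, against 12.5 for the other 1050 genes 3 or more higher in the embryo with an oocyte value, 7 over all 32851 promoters of the table and 21 over those of all genes kept. The list of oocyte products above also had a median of 2, so few CpG were not particular to the 65. TATAAA was found on either strand in 34.7% of them (10.4% for the other 1050 genes, 13.6% of all promoters, 7.93% of those of genes kept), GGATTA in 34.7% (5.30%, 7.06% and 6.27%) and CCAAT in 69.4% (38.1%, 37.4% and 40.6%). The DUX motif was found in 4 of the 49, those of Zscan4b, Zscan4c, Zscan4d and Zscan4f, and in 68 of the 32851. The GC box was found in 8.16% of them, against 46.2% for the other 1050 genes, 35.7% of all promoters, 60.9% of those of genes kept and 60.7% of those of genes 3 or more higher in mESC, whose median CpG number was 19. Many of the 65 are copies within families and share promoter sequence, so these shares count related sequences more than 1 time. A match is a description of letters, not of binding.

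**Figure D2:**
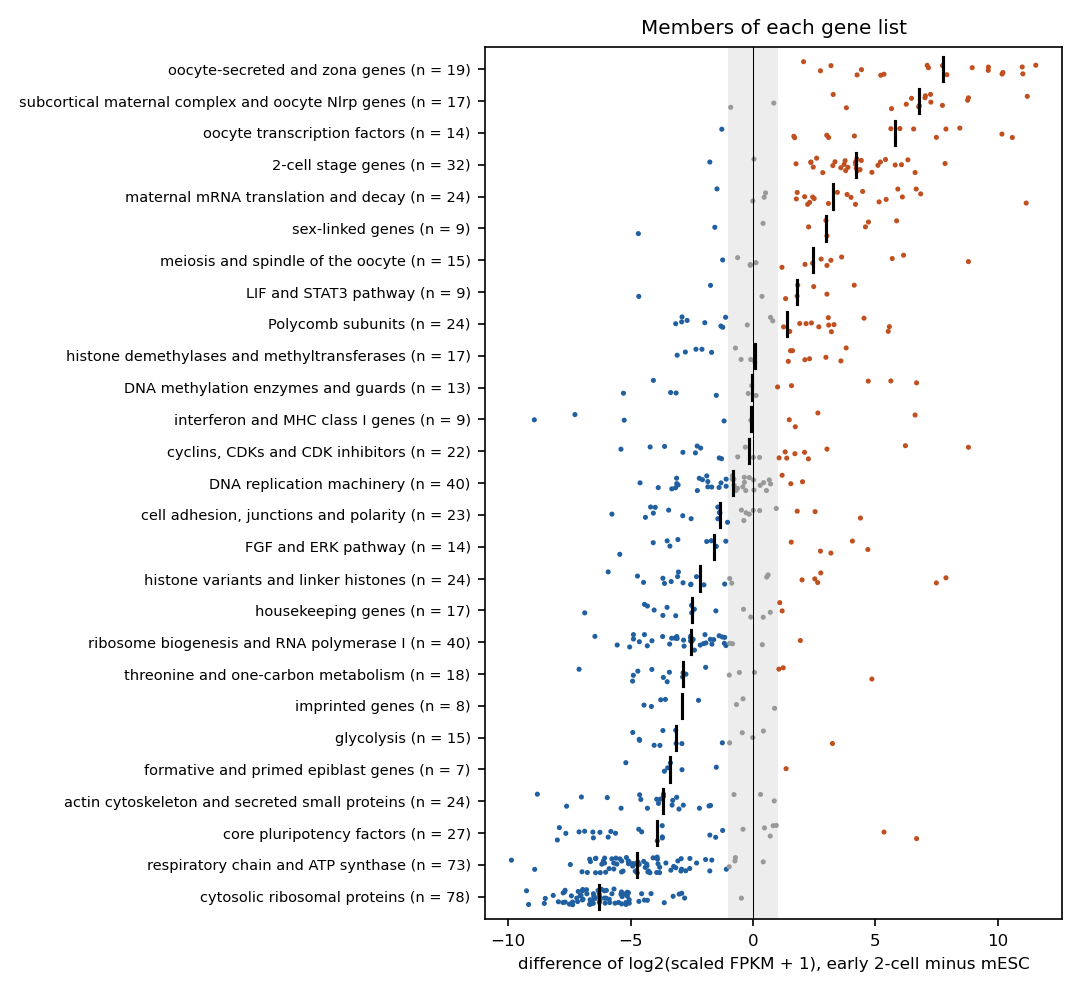
Differences of log2(scaled FPKM + 1), early 2-cell minus mESC, of the members kept in each gene list, with the number kept in brackets. Each point is 1 gene, the black bar is the list's median, the grey band marks differences under 1, and lists run from cytosolic ribosomal proteins (median -6.31) to oocyte-secreted and zona genes (7.74).

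On the mESC side stood the pluripotency network. Of 27 of its genes kept of 30, 20 were higher in mESC, 17 of them by 3 or more, and 2 were higher in the embryo, with a median difference of -3.91. Sox2 stood at 86.0 FPKM in mESC and 0.122 in early 2-cell embryos, Nanog at 94.4 and 0.269, and Zfp42 (Rex1), a zinc-finger marker of naive stem cells, at 415 and 1.23. Esrrb, an orphan nuclear receptor of the same network, stood at 27.9 and 0.538 FPKM, and Utf1, a chromatin factor of stem cells, at 116 and 0.208. Dppa5a, an RNA-binding protein, was the most abundant transcript of mESC at 8963 FPKM, against 48.1 in the embryo, and like Tdgf1, the Nodal co-receptor (185 against 0.114 FPKM), it has a near-identical copy.

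Not every pluripotency gene followed. Pou5f1, which encodes Oct4, stood at 65.5 FPKM in early 2-cell embryos and 26.1 FPKM in mESC, a difference of 0.82 towards the embryo that passed the line of 1 without scaling (1.30) and with quantile normalization. Lin28a (12.6 and 6.29 FPKM), Zfp296 (34.2 and 12.2), Mybl2 (30.9 and 13.2) and Trim71 (5.30 and 5.31) also lay within 1. Sall4, a zinc-finger partner of Oct4, was at 26.8 and 56.8 FPKM (-1.53). Dppa3 (Stella), a maternal protein that protects methylation of the maternal genome, was 6.68 higher in the embryo, with 1895 against 12.3 FPKM. The early 2-cell column thus held transcripts of Oct4, Sall4 and Lin28a together with Sox2, Nanog and Klf2 below 1 FPKM.

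Pairs of related genes stood on opposite sides. These pairs were chosen after their values were seen. Among Krüppel-like factors, Klf17 stood at 332 FPKM in the embryo and 0.188 in mESC, whereas Klf2 stood at 0.0733 and 53.4, Klf4 at 0.925 and 37.4, and Klf5 at 0.493 and 14.8. Of the TET dioxygenases, which oxidise methylated cytosine, Tet3 was the embryo's (36.7 against 0.190 FPKM) and Tet1 the stem cells' (0.300 against 17.0), while Tet2 did not reach 5 FPKM in either. Of the de novo methyltransferases, Dnmt3a was higher in the embryo (10.01 against 1.84 FPKM) and Dnmt3b in mESC (3.31 against 8.23). The maintenance enzyme Dnmt1 (11.1 and 9.21 FPKM) and its recruiter Uhrf1 (56.0 and 36.6) lay within 1. Trim28, the co-repressor that acts with Zfp57, stood at 3.35 FPKM in the embryo and 126 in mESC. The list of methylation enzymes as a whole had 5 genes higher on each side among 13 kept and a median of -0.05. That is 38.5% on each side, near the 40.0% (embryo) and 38.2% (mESC) of all genes.

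Other chromatin genes also stood on both sides. The oocyte linker histone H1foo (247 against 0.139 FPKM) faced the somatic Hist1h1b (0.683 against 16.3). The libraries are of polyadenylated RNA, so histone transcripts without a poly(A) tail are not measured in full. The difference of Hist1h1b was -3.68, but -0.73, within 1, when centred by transcript length (below). Cbx2, a chromodomain subunit of Polycomb repressive complex 1, at 18.0 against 0.540 FPKM, faced Cbx7 at 1.37 against 12.9. Of 24 Polycomb genes kept of 32, 13 were higher in the embryo (54.2%, against 40.0% of all genes). In mESC 8 were higher (33.3%, against 38.2%), and the median was 1.38. The ring finger gene Bmi1 (112 against 0.863 FPKM) and Phf1 (71.6 against 0.285) were on the embryo side, and Jarid2 (4.21 against 33.6) and Mtf2 (7.52 against 45.5), accessory subunits of complex 2, on the mESC side. The core subunits Ezh2 (69.8 and 30.0 FPKM) and Suz12 (35.2 and 29.7) lay within 1. Of 24 histone variant genes kept of 29, 14 were higher in mESC (58.3%, against 38.2% of all genes). In the embryo 6 were higher (25%, against 40.0%). H2afz, which encodes H2A.Z, had the largest difference to mESC (23.6 against 1067 FPKM).

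**Figure D3:**
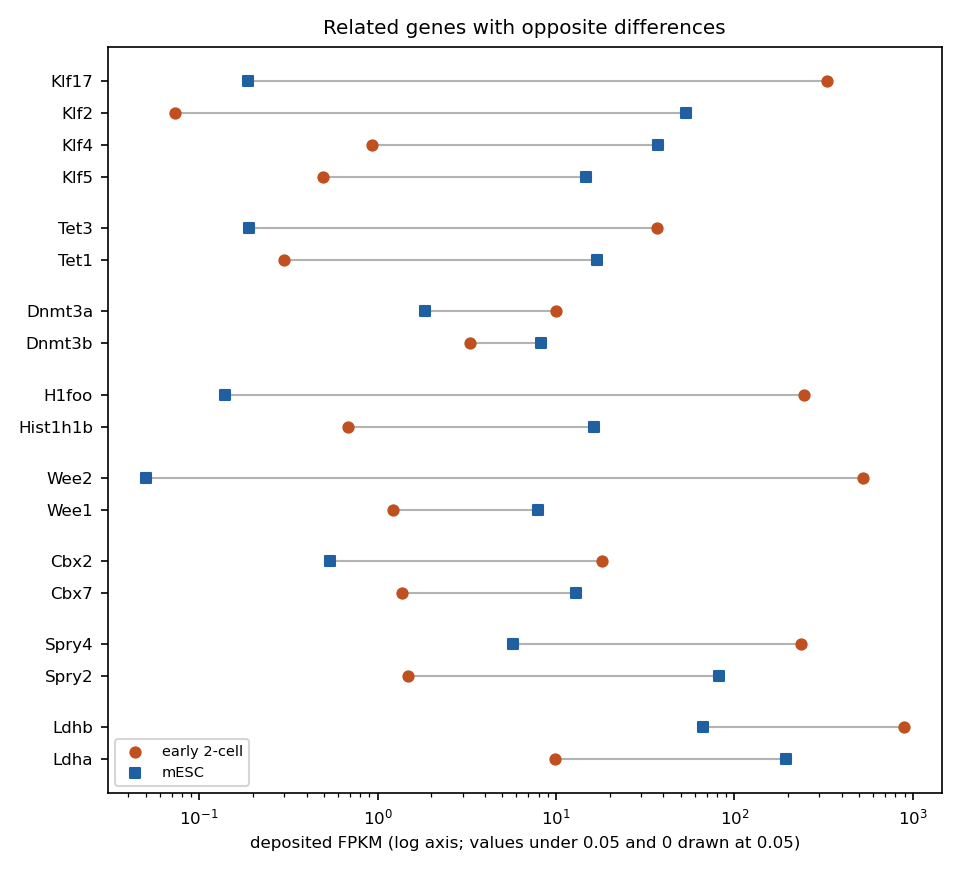
Deposited FPKM of related genes on a log axis, with early 2-cell embryos as orange circles and mESC as blue squares. In each group the first gene is higher in early 2-cell embryos (for example Klf17 at 332 against 0.188 FPKM) and the genes below it are higher in mESC (Klf2 at 53.4 against 0.0733 FPKM).

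Signalling genes gave no single direction. The LIF and STAT3 pathway sustains stem cells in this medium. Of its 9 genes kept, 6 were higher in the embryo (66.7%, against 40.0% of all genes). In mESC 2 were higher (22.2%, against 38.2%). The kinases Jak2 (26.2 against 0.267 FPKM) and Jak1 (36.7 against 2.49) and the factor Stat3 itself (24.1 against 4.25) were higher in the embryo. The other 9 of the list's 18 members did not reach 5 FPKM, among them the receptor Lifr (0.493 and 3.55 FPKM) and the feedback inhibitor Socs3 (1.35 and 3.73), and without the filter the list's median of 1.8 became -0.06. In the FGF and ERK pathway 5 of 14 genes kept were higher in the embryo (35.7%, against 40.0% of all genes) and 9 in mESC (64.3%, against 38.2%). Of the Sprouty inhibitors, Spry4 stood at 237 against 5.75 FPKM and Spry2 at 1.48 against 82.0, and the ERK kinase gene Mapk3 stood at 94.2 against 3.24. The ligand gene Fgf4, a target of Oct4 and Sox2, was listed at 0 in the embryo and stood at 13.4 FPKM in mESC. Genes of the formative and primed epiblast were mostly below the filter (7 kept of 22), and 6 of those 7 were higher in mESC, among them Id3, Id1 and Otx2, while Id2 was higher in the embryo (19.6 against 4.98 FPKM).

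Before any centring by transcript length, the list with the lowest median was the translation machinery. All 78 cytosolic ribosomal protein genes in the table were kept, 77 were higher in mESC, 75 by 3 or more, and the median difference was -6.31. Their median level was 5.46 FPKM in early 2-cell embryos and 403 FPKM in mESC, and together they took 0.261% and 12.7% of all FPKM. These are levels of polyadenylated RNA, and the part of poly(A) tail length in them was not tested. Rps29 stood at 8.28 against 4121 FPKM and Rpl38 at 0.465 against 421. The exception was Rpl29, at 12.1 and 12.3 FPKM. Near-identical copies exist for 72 of these genes. Of 40 genes of ribosome biogenesis kept of 44, 36 were higher in mESC and 1, the RNA polymerase I factor Taf1a, in the embryo, with a median of -2.54. Among them nucleolin (Ncl) stood at 16.2 against 217 FPKM and the snoRNP protein gene Nop10 at 26.1 against 1712.

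The respiratory chain and ATP synthase stood alongside. Of 73 nuclear-coded subunit genes kept of 74, 69 were higher in mESC and none in the embryo, with a median of -4.73 and median levels of 13.1 and 238 FPKM. Cox7c, of cytochrome oxidase, stood at 0.510 against 1130.4 FPKM, and Atp5j, of ATP synthase, at 4.44 against 1946. The 4 within 1 were Atp5b (282 and 396 FPKM), Sdhc (46.9 and 56.4), Ndufa10 (49.0 and 58.1) and Sdha (54.7 and 29.1). Only 13 of the 73 have near-identical copies.

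Most of the metabolic genes kept were higher in mESC, with exceptions in both lists. Of 15 glycolysis genes kept of 22, 10 were higher in mESC (66.7%, against 38.2% of all genes). In the embryo 1 was higher (6.67%, against 40.0%), and the median was -3.14. That 1 was Ldhb, the heart-type lactate dehydrogenase subunit, at 894 against 66.6 FPKM, while the muscle-type subunit Ldha stood at 9.85 against 195 (Ldhb has a near-identical copy). The facilitative glucose transporter Slc2a3 was on the mESC side (0.365 against 26.9 FPKM), and Slc2a1 lay within 1 (25.8 and 13.5). Of 18 genes of threonine and one-carbon metabolism kept of 21, 12 were higher in mESC (66.7%) and 3 in the embryo (16.7%). Tdh, threonine dehydrogenase, on which mouse stem cells depend, stood at 0.564 against 171 FPKM, and Mat2b, a regulatory subunit of methionine adenosyltransferase, was far to the embryo side at 1006 against 23.99.

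Cell cycle genes stood on both sides or level. Of 40 replication genes kept of 42, 19 lay within 1 (47.5%, against 21.9% of all genes), 18 were higher in mESC and 3 in the embryo, with a median of -0.81. The helicase subunits Mcm2 (63.8 and 33.5 FPKM), Mcm4 (53.2 and 30.9) and Mcm6 (38.3 and 42.9) were at like levels, while Mcm3 (6.10 and 51.0) was not. Of 22 cyclin and CDK genes kept of 32, 9 were higher on each side (40.9%, near the 40.0% and 38.2% of all genes). Ccnb1 (689 against 114 FPKM), Ccne2 (25.2 against 4.90) and Ccno (87.4 against 0) were higher in the embryo. Ccne1 (1.73 against 37.5 FPKM), Ccnd1 (0.697 against 15.6) and Cdk4 (4.51 against 170) were higher in mESC. Wee1 (1.22 against 7.91 FPKM) was the stem cells' counterpart to Wee2.

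Actin genes, and fewer of the adhesion genes, were on the mESC side. Of 24 actin and secreted-protein genes kept of 33, 21 were higher in mESC and none in the embryo (median -3.66). Spp1, the secreted adhesion protein osteopontin, stood at 650 FPKM in mESC against 0.846 in the embryo and Tmsb4x, which binds monomeric actin, at 1789 against 11.6. Cfl1, the actin-severing cofilin, lay within 1 at 639 FPKM in the embryo and 250 in mESC. Of 23 adhesion and polarity genes kept of 34, 13 were higher in mESC (56.5%, against 38.2% of all genes), 7 lay within 1 and 3 were higher in the embryo. Epcam, an epithelial adhesion molecule, was on the mESC side (0.254 against 16.4 FPKM). Cdh1, which encodes E-cadherin, stood at 8.63 and 17.3 FPKM (-1.37, or -0.93 without scaling), and the polarity gene Pard3 was higher in the embryo (85.8 against 2.12). Genes often used as references were not level: Actb stood at 56.6 against 820 FPKM and Gapdh at 16.9 against 212, whereas Hprt (149 and 139) and B2m (18.7 and 14.3) lay within 1.

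The stage columns place the mESC side as well. Of the 1226 genes 3 or more higher in mESC, 322 were at 5 FPKM or more in early 2-cell embryos, 818 at the 2-cell stage, 888 at the 4-cell stage, 936 at the 8-cell stage and 1072 in ICM. The 1116 genes of the embryo side went from 1116 at the early 2-cell stage to 735, 402, 280 and 250 at the same steps and to 86 in mESC. Most genes of the mESC side were thus already at 5 FPKM in the 2-cell column, the next after the early 2-cell. The early 2-cell and mESC columns chose these genes, so the counts in those columns follow from the choice. The columns from 2-cell to ICM have Rn45s at 0, and the part of this in the counts was not tested. The median ribosomal protein level was 1.28 FPKM in MII oocytes, 4.56 in zygotes, 5.46 in early 2-cell embryos, 73.6 at the 2-cell, 220 at the 4-cell and 285 at the 8-cell stage, 237 in ICM and 403 in mESC. Core pluripotency genes had a median of 1.40 FPKM in early 2-cell embryos, 6.14 at the 2-cell stage, 16.2 at the 8-cell stage and 52.2 in ICM, above the 39.0 of mESC. Glycolysis genes stood at 5.76, 2.51 and 1.74 FPKM at the early 2-cell, 2-cell and 8-cell stages and at 13.1 in ICM.

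**Figure D4:**
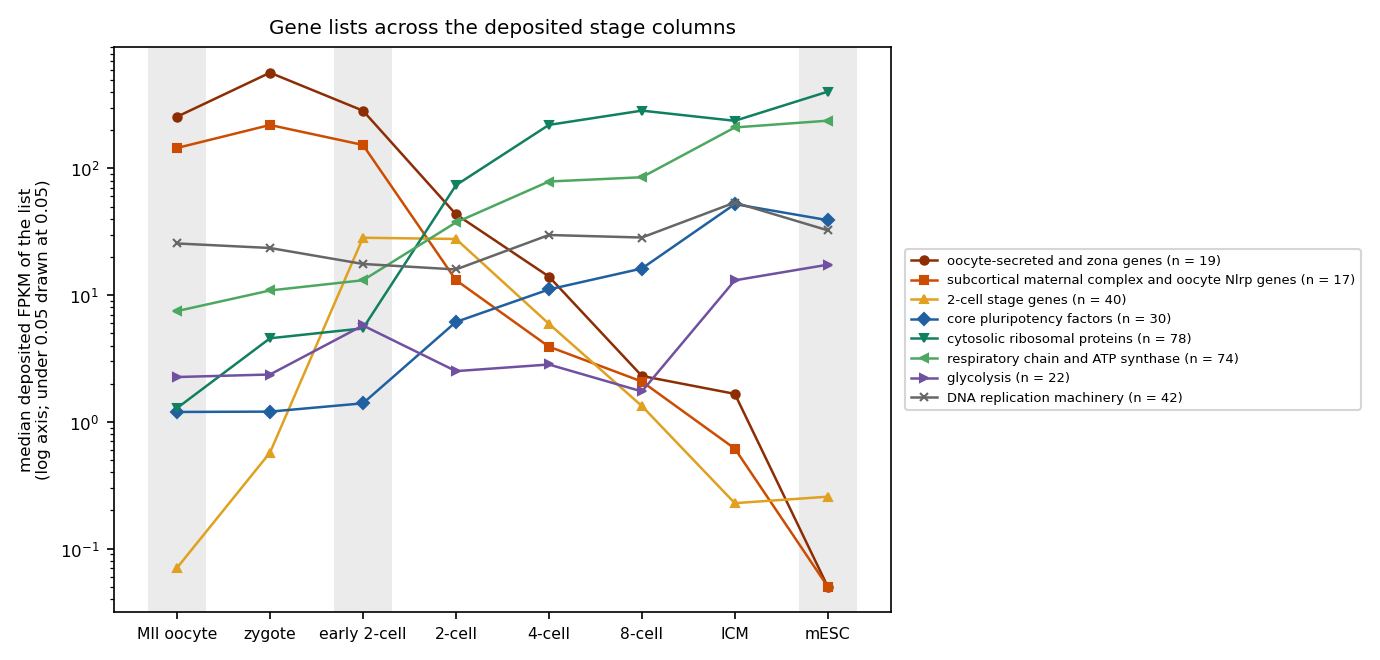
Median deposited FPKM of 8 gene lists in each stage column on a log axis, with all members in the table included and the 3 columns that have Rn45s above 0 shaded. Ribosomal protein and respiratory genes are higher in the 2-cell column (73.6 and 37.4 FPKM) than in the early 2-cell column (5.46 and 13.1), with a lower ribosomal protein median in ICM than at the 8-cell stage (237 and 285), and oocyte lists decline to 0 in mESC, while the 2-cell list is highest in the early 2-cell and 2-cell columns (28.3 and 27.7 FPKM).

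Of the 1226 genes, 390 stood 1 or more above ICM in the unscaled columns and 836 did not, and 291 stood 1 or more above every embryo stage. With all stage columns scaled to 1 median the counts were 644 above ICM and 524 above every stage, so these classes depend on the scaling. ICM has Rn45s at 0 and mESC at 2555 FPKM, and its part in these classes was not tested. Rps29 stood at 985 FPKM in ICM and 4121 in mESC, and Ifitm1, an interferon-inducible membrane protein of early germ cells, at 9.81 and 413. Spp1 (2088 FPKM in ICM) and Tdgf1 (563) were instead higher in ICM than in mESC. The box H/ACA snoRNA genes Snora26 (5831 FPKM), Snora64 (951) and Snora3 (534) had some of the largest differences on the mESC side and were listed at 0 in early 2-cell embryos and in ICM. Of 16 Snora genes kept, 14 were higher in mESC, but Snora47 stood at 5189 FPKM in the embryo against 215. Their median annotated length was 133 bases. In libraries of polyadenylated RNA the values of such short genes are uncertain and need not be levels of the snoRNA.

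Transcript length moved with the difference. Genes were sorted by their longest transcript in GENCODE M21, known for 7122 of the 7170. The median difference was -5.19 for the 82 genes of up to 500 bases, -2.96 for 444 genes up to 1000, -1.48 up to 1500, -0.40 up to 2000, 0.07 up to 3000, 0.56 up to 5000 and 1.23 for the 1093 genes over 5000. Without ribosomal protein and respiratory genes the medians were still -4.54 and 1.24 in the first and last class. Ribosomal protein and respiratory genes stood lower than the others of their class in all 7 classes, at -4.72 to -6.57, though 4 of the classes hold fewer than 20 of them. The longest annotated transcript need not be the one expressed. Rpl35a is classed by 2858 bases and Rpl7 by 1597, so the classes and the centring below are not a full control for length. With each gene set against the median of its length class, a step added after the trend was seen, the ribosomal protein list stood at -4.13 in place of -6.31 and the respiratory list at -2.81 in place of -4.73. The pluripotency list then stood at -4.94, below the ribosomal protein list, glycolysis at -3.28, the 2-cell list at 4.67 and the oocyte-secreted list at 8.14. The tool that made the expression values is named by the submitters' notes for mESC (Cufflinks 2.2.1) and not for early 2-cell embryos. That, library batch, and the cells themselves cannot be told apart here.

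**Figure D5:**
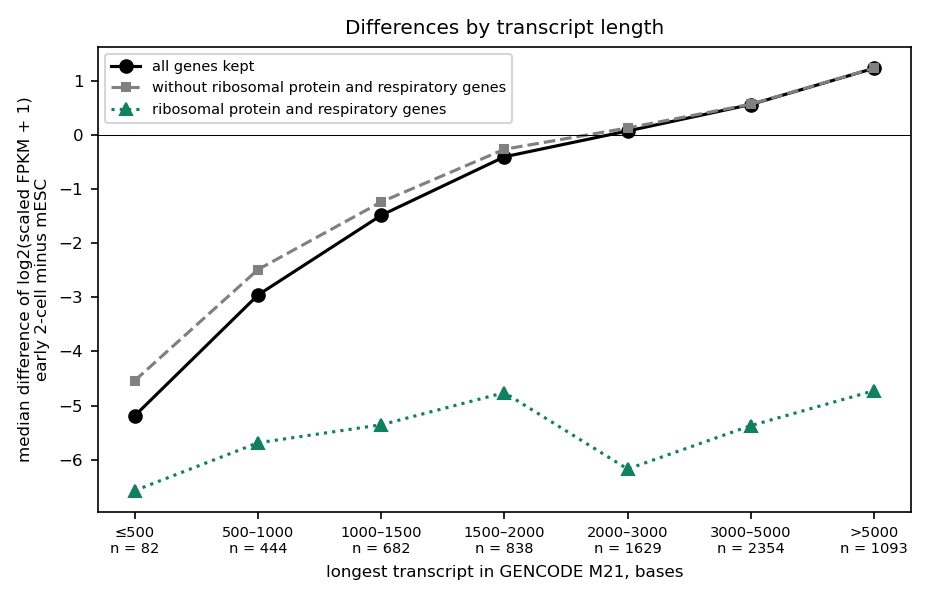
Median difference of log2(scaled FPKM + 1), early 2-cell minus mESC, by class of longest annotated transcript, with the number of genes per class. The black line (all genes) runs from -5.19 at up to 500 bases to 1.23 over 5000 bases, the grey line leaves out ribosomal protein and respiratory genes, and the green line shows these alone, below the others in every class.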

How the data were processed

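The authors deposited FPKM for 24013 genes, with 1 column per stage. The submitters' processing notes give CASAVA 1.8 for base calling and STAR 2.4.0 with the mm9 build for alignment of every sample, and name Cufflinks 2.2.1 for mESC but not for early 2-cell embryos or MII oocytes. How the samples of a stage were merged is not given in the sources used here, and read totals were not used. The labels name no separate litters or cultures.

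Genes with 5 FPKM or more in either column were kept, Rn45s left out, both columns scaled to the geometric mean of their medians (factors 0.845 and 1.18), and log2(FPKM + 1) subtracted. The computation was checked on simulated data. The genes compared and the 32 gene lists were chosen with earlier results of these data known. The text names the 12 largest differences on the embryo side and some of the 12 largest on the mESC side. Unnamed loci and families with 3 members named were passed over. It also names up to 5 members per list, a fixed set of stage markers, and other list members as examples. The values of some list members are not reported here. Near-identical copies are coding sequences with another GENCODE M21 transcript at 95% identity or more over 50% of their length (minimap2 2.31). Of the 7170 genes 7122 were found there by symbol, and 925 of 6880 with a coding sequence had such a copy. Promoter sequences are RefSeq's for GRCm38.p6, with motifs searched on both strands. The 8 columns of knockdown libraries in the other tables were not used. Work was done in Python 3.11.15 with numpy 2.4.6, pandas 2.3.3 and matplotlib 3.10.9.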

Additional observations from a re-analysis of the deposited data

How the results depend on the processing

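No paired analysis was possible because the table gives 1 column per stage, and for the same reason no sample could be left out. The counts at a difference of 1 or more and of 3 or more stayed within 1.5 times under other scalings, a pseudocount of 0.1, a filter of 10 FPKM and without near-identical copies, and also when differences were centred by transcript length, which was added after seeing the data. A pseudocount of 5 left 405 genes higher in early 2-cell embryos and 601 higher in mESC by 3 or more (1116 and 1226 before). With a filter of 1 FPKM 4139 genes, and with no filter 4807 genes, were higher in mESC by 1 or more, since more low genes enter. Among the stage classes, scaling all stage columns gave 644 genes above ICM and 524 above every embryo stage, the MII oocyte alone as the reference, added after seeing the data, gave 207 genes above it in place of 65, and a difference of 2 gave 40 genes below the oocyte or zygote, 175 above ICM and 122 above every stage. Of the 134 genes named with a difference of 1 or more, those that an alternative could be run on (110 to 134) kept their sign in all of them except Ifitm3, which went from -1.18 to 1.77 when centred by transcript length. Without scaling 4 of the 134 fell within 1 (Bub1b, Cdh1, Ctcf and Ifitm3), and 6 of the 27 named genes within 1 passed the line (Ooep, Pou5f1, Cfl1, Ezh2, Mybl2 and Zfp296). A pseudocount of 5 brought 5 of the 134 within 1, among them Dnmt3a and Dnmt3b. Length centring did so for 5 of those it ran on, counting Ifitm3's turn, the others being Stat3, Dnmt3a, Hist1h1b and Lgals1. It took 10 of the 27 past the line. List medians changed sign 22 times in 10 lists. Of these, 16 were medians under 1 either way (DNA methylation, cyclin, interferon, histone demethylase and trophectoderm lists), such as the methylation list at -0.05 and 0.36 without scaling and the cyclin list at -0.15 and 0.29. The other 6 were of lists with at most 9 members kept: with a filter of 1 FPKM the cumulus list stood at -1.27 and the sex-linked list at -0.15, and with no filter the LIF list at -0.055, the primitive endoderm list at -0.052, the germ layer list at -0.083 and the sex-linked list at -0.054. The depth of the libraries is unknown here, which limits what a low value or a value of 0 can show.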

Other observations

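Gene families defined by their symbols, chosen after their values were seen, are given beside the 40.0% of all genes kept that were higher in the embryo and the 38.2% higher in mESC. Of 77 mitochondrial ribosomal protein genes (Mrpl and Mrps) kept, 67 were higher in mESC and 2 in early 2-cell embryos, with a median difference of -3.06. Proteasome subunits (Psm) had 29 of 37 genes higher in mESC and 2 in the embryo (median -2.85), the translation initiation complex eIF3 11 of 13 and none (-3.99), and mitochondrial import genes (Tomm and Timm) 15 of 22 and 2 (-2.39). The Bex genes, small proteins encoded on the X chromosome, had all 3 kept members higher in mESC, with a median level of 0.804 FPKM in embryos and 336 FPKM in mESC. On the other side, 14 of 18 Fbxw genes, F-box proteins of which many are oocyte-specific, were higher in the embryo and 2 in mESC (median 6.28), and all 8 Xlr genes (4.65) and 6 of 6 Oas1 genes (7.03) were higher in the embryo. Of 118 zinc-finger genes named Zfp, 69 were higher in the embryo and 21 in mESC (1.25). The Rab GTPases, which direct membrane traffic, had 20 of 33 genes higher in the embryo and 5 in mESC (1.24), and the kinesin motors 8 of 15 and 3 (1.36). The longest transcripts of these families had medians of 1849 bases for Mrp, 1819 for Psm and 2379 for eIF3, against 3248.5 for Zfp, 3197 for Rab and 4983 for kinesins, and the part of length in these differences was not tested.

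The Y-linked gene Eif2s3y, a subunit gene of translation initiation factor eIF2, stood at 20.9 FPKM in mESC (R1 is a male line) and was listed at 0 in early 2-cell embryos. Its X-linked counterpart Eif2s3x stood at 43.0 FPKM in mESC and 19.6 in the embryo. Ifitm1 was listed at 0 and Ifitm2 stood at 1.45 FPKM in the embryo, against 413 and 290 FPKM in mESC, while Ifitm3 stood at 99.3 and 162 FPKM (-1.18, or -0.70 without scaling and 1.77 when centred by transcript length). Tubb3, a beta-tubulin best known from neurons, stood at 301 FPKM in early 2-cell embryos and 16.6 in mESC, and the other 19 germ layer genes were below 5 FPKM in both columns.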
